A study of Mus musculus with 6 samples.

Results

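The mitochondrial ribosomal protein genes are the nuclear genes for the proteins of the ribosome inside mitochondria. They were taken by name, as every gene whose symbol is Mrpl or Mrps with a number and at most 1 letter a, b or c, which gave 78 of the 34745 genes in the table. Of these, 49 are named for the large subunit (Mrpl) and 29 for the small subunit (Mrps), and the subunits were read apart. Their RNA was measured by poly-A RNA sequencing of isolated pancreatic islets, the endocrine clusters that hold the insulin-secreting beta cells, from C57BL/6 mice aged 8 weeks. There were 6 libraries in 3 groups of 2. The WT group was wild type, the KO group carried the genotype called βRapKO, a loss in beta cells of Rptor, the gene for the mTORC1 subunit Raptor, and the KO+DNMT3A group was βRapKO with Dnmt3a, a DNA methyltransferase gene, added through a lentivirus. The comparisons ask what the loss did, what the added Dnmt3a did on top of it, and how far the latter group stood from WT. The promoter that drove the deletion is not given in the sources used here, and the labels do not say whether replicates came from separate mice, so p-values measure only the spread between these libraries. The descriptions of the WT and KO libraries carry the tag GFP where those of the third group carry DNMT3A; the labels do not explain it or say which virus these islets received.

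Mitochondrial DNA encodes the RNA of this ribosome but few proteins, all of them inner parts of the respiratory chain and ATP synthase, and the mitochondrial ribosome exists to make them. Its own proteins are encoded in the nucleus, translated in the cytosol and imported, and many more of them than in bacteria have no bacterial relative. The large subunit joins the amino acids and is fixed to the inner membrane, while the small subunit binds the mRNA and reads its codons. Beta cells couple glucose to insulin release through mitochondrial ATP, and mTORC1 is known to promote the making of mitochondrial proteins.

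Promoters of nuclear genes for mitochondrial proteins are known for sites of NRF1, of the ETS factor GABP (NRF2) and of YY1, and 5 promoters are shown because they carry these letters or belong to genes described later. RefSeq (GRCm38.p6) gave a window from 250 bases before to 50 bases after the start of transcription for 43 large-subunit and 26 small-subunit genes. The letters searched, on both strands, were GCGCATGCG for NRF1, CCGGAAG for ETS factors and AAGATGGCG for YY1, and no motif contains another. The 150 bases before the start are printed 5′ to 3′ on the gene's strand, with matches in capitals. Mrpl22 (chr11:58171514-58171663, plus strand) holds an ETS match that begins 53 bases and an NRF1 match that begins 33 bases before the start. Mrpl32 (chr13:14613038-14613187, minus strand) holds NRF1 letters on both strands, overlapping at 87 and 86 bases before the start, and again on the reverse strand at 23 bases. Mrps18a (chr17:46110854-46111003, plus strand) has an ETS match at 26 bases, and Mrps22 (chr9:98601680-98601829, minus strand) has one at 11 bases. Mrps11 (chr7:78782981-78783130, plus strand) holds the reverse complement of the YY1 letters at 108 bases, and its start lies inside Mrpl46, a gene of the other subunit on the opposite strand.
Mrpl22: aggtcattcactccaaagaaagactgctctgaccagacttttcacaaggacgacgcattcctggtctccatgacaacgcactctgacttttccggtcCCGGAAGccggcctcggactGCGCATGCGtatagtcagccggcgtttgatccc
Mrpl32: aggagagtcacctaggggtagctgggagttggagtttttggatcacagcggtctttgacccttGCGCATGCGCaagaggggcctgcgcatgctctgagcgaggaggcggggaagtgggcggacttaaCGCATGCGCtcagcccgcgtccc
Mrps18a: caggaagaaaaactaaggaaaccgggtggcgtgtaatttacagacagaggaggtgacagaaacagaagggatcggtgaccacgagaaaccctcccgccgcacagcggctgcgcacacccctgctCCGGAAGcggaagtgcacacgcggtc
Mrps22: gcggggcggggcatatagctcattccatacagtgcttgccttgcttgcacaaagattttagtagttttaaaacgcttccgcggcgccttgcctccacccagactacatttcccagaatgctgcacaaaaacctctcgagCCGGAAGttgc
Mrps11: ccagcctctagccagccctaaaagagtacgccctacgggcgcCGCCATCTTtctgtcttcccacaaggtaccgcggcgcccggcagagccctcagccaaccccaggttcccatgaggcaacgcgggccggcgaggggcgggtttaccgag

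Of the genes with a window, 23 of 43 in the large subunit (53.5%) and 13 of 26 in the small subunit (50%) held at least 1 of the 3 motifs. A gene with several windows counted once, if any of them matched. The share was 26.2% over the 9336 genes kept for testing that have a window and 12.7% over all 27025 genes with one. It was 50% over the 60 cytosolic ribosomal protein genes with a window. The ETS letters stood in 34.9% of large-subunit and 42.3% of small-subunit genes, beside 20.3% for genes kept and 9.93% for all genes with a window. The NRF1 letters stood in 6 large-subunit genes (14.0%) and in 1 small-subunit gene (3.85%), Mrps18b. Beside these were 4.21% for genes kept and 1.95% for all genes with a window. The YY1 letters stood in 4 genes of each subunit (9.30% and 15.4%), beside 3.70% for genes kept and 1.64% for all genes with a window. A match is a description of these letters and not a bound site, and no binding was measured here.

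Many of these genes also start close to a neighbour on the opposite strand. Of the 77 members kept for testing, 33 (42.9%) had the start of another protein-coding gene on that strand within 1000 bases in the GENCODE M21 annotation, beside 1880 of 11416 protein-coding genes kept (16.5%). In 18 of the 33 (23.4% of members, beside 10.3% of protein-coding genes kept) the pair lay back to back and pointed away from each other, and in 15 (19.5%, beside 6.21%) each gene ran through the start of the other. Some partners also serve mitochondria: Mrps12 lies back to back with Sars2, the mitochondrial seryl-tRNA synthetase, with 172 bases between the starts. Mrpl43 overlaps Twnk, the helicase that copies mitochondrial DNA, by 779 bases at their starts, and Mrpl47 and Mrpl36 overlap Ndufb5 and Ndufs6, both for subunits of respiratory complex I, by 615 and 29 bases. Such layouts bear on the measurement, because the library protocol in the labels describes no marking of strand. In all, 33 of 78 members shared exonic bases with another gene, 28 of them with one on the opposite strand. For 25 members, another gene had a transcript at least 95% identical over at least 200 bases, in 19 of these an annotated pseudogene. The levels of such members are uncertain by the reads a neighbour or copy may have taken or given.

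The deposited values are FPKM, read fragments scaled to transcript length and to the size of the library, which can be compared between genes of different length. The steps between low values implied 780500 to 1920381 fragments assigned to genes in 5 libraries but only 244748 in WT replicate 1, so a single fragment on a transcript of 1 kb was worth 4.09 FPKM in WT replicate 1 and 0.521 to 1.28 FPKM elsewhere. A pair of libraries went against the tissue label: Ins1 and Ins2 took 0.170% of all FPKM in WT replicate 1 and 0.109% in KO replicate 2, but 16.5% to 30.5% in the other 4. The same 2 libraries had the largest shares from mitochondrial DNA (44.8% and 50.9%, others 16.5% to 26.5%) and from genes that collect ribosomal RNA reads (15.3% and 8.10%, others 2.15% to 4.06%). All 9 beta cell markers listed passed the filter, and they summed to 1577 and 1677 FPKM there, beside 124490 to 217965 FPKM elsewhere; 6 duct markers summed to 2448 in WT replicate 1, 959 in KO+DNMT3A replicate 1 and 86.8 to 182 elsewhere. The 8 macrophage markers, all kept, summed to 525 and 507 FPKM in WT, 512 and 321 in KO, and 234 and 158 in KO+DNMT3A, the group with the least. Rptor did not separate the groups, at 0.800 and 1.06 FPKM in WT, 0.378 and 1.51 in KO and 0.714 and 1.93 in KO+DNMT3A. These values are low, and the labelled loss is in beta cells while the RNA is from whole islets, so they do not test the genotype. Dnmt3a was at 2.94 and 4.43 FPKM in WT, 3.19 and 2.50 in KO, and 3.62 and 3.80 in KO+DNMT3A, so both libraries with the added gene lay above KO, as labelled, but inside the range of WT. Groups below are named as the labels name the libraries. In whole islets, fewer cells of a type and less RNA per cell cannot be told apart.

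Mitochondrial ribosomal protein genes were moderately expressed in islets, at 2.37 to 47.6 FPKM as the mean over libraries in the large subunit and 0.659 to 41.4 FPKM in the small subunit. Although the proteins enter the ribosome mostly as single copies, mean levels spanned 20.1-fold in the large and 62.8-fold in the small subunit, with medians of 9.72 and 10.1 FPKM. The 5 highest members held 27.5% of the summed FPKM of the large subunit and 43.7% of that of the small subunit. The median large-subunit gene had more FPKM than 76.0% to 80.1% of the genes kept, depending on the library, and the median small-subunit gene more than 62.4% to 81.0%.

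Among large-subunit genes Mrpl42 was highest by mean, at 30.7 and 55.5 FPKM in the WT libraries, 80.0 and 21.2 in KO, and 46.9 and 51.1 in KO+DNMT3A. It was followed by Mrpl54 (20.3 to 54.4 FPKM over the 6 libraries), Mrpl36 (9.09 to 49.8 FPKM) and Mrpl34 (0 to 44.6 FPKM). These neighbours in the order overlapped one another over libraries and cannot be ranked. At the low end stood Mrpl15 (1.01 to 3.55 FPKM), Mrpl48 (0.454 to 3.76 FPKM) and Mrpl3 (1.62 to 3.91 FPKM), the last for a protein near the peptidyl transferase centre, and they overlapped as well. Mrpl15 and Mrpl3 did not reach the range of Mrpl42 in any library. Mrpl42 and Mrpl48 have near-identical annotated pseudogenes.

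In the small subunit Mrps16, a gene mutated in an inherited disorder of mitochondrial translation, was highest and held the steadiest level of the abundant members: 36.1 and 47.2 FPKM in WT, 38.4 and 38.5 in KO, and 48.8 and 39.5 in KO+DNMT3A. Below it came Mrps21 (11.3 to 34.8 FPKM), Mrps28 (6.55 to 38.5 FPKM) and Mrps15 (16.9 to 23.1 FPKM), whose ranges overlapped. Mrps22 (0 to 3.94 FPKM), Mrps35 (0 to 2.48 FPKM) and Mrps36 (0 to 2.38 FPKM) were lowest. Mrps36 alone did not pass the filter of at least 1 FPKM in at least 2 libraries; its product is known as a part of the 2-oxoglutarate dehydrogenase complex of the citric acid cycle rather than of the ribosome. Near-identical pseudogenes are annotated for Mrps16, Mrps21 and Mrps36.

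**Figure D1:**
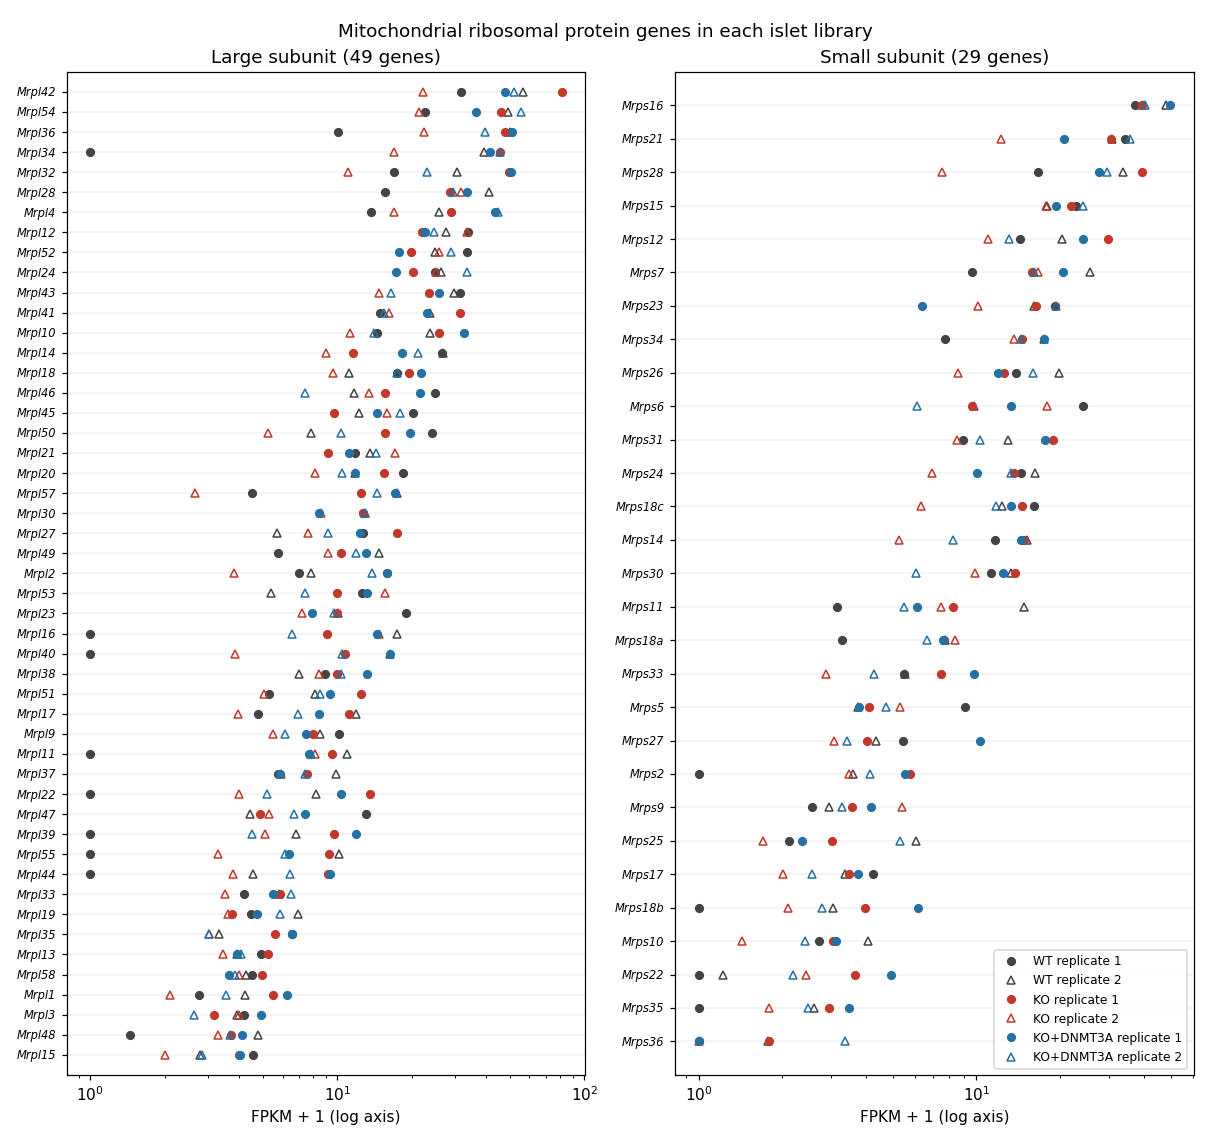
FPKM plus 1 of each member in each library on a log axis, large subunit left and small subunit right, ordered by mean level; colour gives the group, circles replicate 1 and triangles replicate 2. WT replicate 1 (grey circles) has 13 members at 0, and KO replicate 2 (red triangles) is the lowest library for 20 of 49 large-subunit and 14 of 29 small-subunit genes.

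Differences between libraries of a group were as large as those between groups. The 49 large-subunit genes summed to 526 and 733 FPKM in the WT libraries, to 774 and 459 in the KO libraries and to 773 and 682 in those of KO+DNMT3A, and counting error on these sums was at least 17.8 to 40.9 FPKM (SE). The 29 small-subunit genes summed to 277 and 346 FPKM in WT, 340 and 212 in KO, and 322 and 289 in KO+DNMT3A, with a counting SE of at least 11.3 to 31.2 FPKM. Thus the lowest sums of both subunits were in KO replicate 2, and all groups overlapped. Group means for the large subunit were 629 ± 146 (SD, n = 2), 616 ± 222 and 727 ± 64.5 FPKM for WT, KO and KO+DNMT3A, and for the small subunit 311 ± 48.96, 276 ± 90.6 and 306 ± 23.6 FPKM.

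Because insulin and mitochondrial transcripts took different shares of the libraries, the sums were also set over the remaining FPKM. The large subunit then took 0.230% and 0.282% in WT, 0.285% and 0.176% in KO, and 0.283% and 0.266% in KO+DNMT3A. The small subunit took 0.121% and 0.133%, 0.125% and 0.0810%, and 0.118% and 0.113%. KO replicate 2 was lowest for both subunits on this scale too. The KO libraries enclosed all others for the large subunit, and for the small subunit WT replicate 2 lay above both of them.

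Inside the KO group most members differed in the same direction between replicates: 39 of 49 large-subunit and 22 of 28 small-subunit genes kept were higher in replicate 1, with a median difference of 0.74 and 0.70 in log2(FPKM + 1), beside 0.21 over all 13233 genes kept. KO replicate 2 was the lowest of the 6 libraries for 40.8% of large-subunit and 48.3% of small-subunit genes, and for 19.99% of all genes kept. It is also the library with the least insulin RNA and the most mitochondrial RNA, and the part of either in the lower values was not tested.

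WT replicate 1 differed in another way: 13 members were listed at 0 there, 8 of the large subunit (Mrpl11, Mrpl16, Mrpl22, Mrpl34, Mrpl39, Mrpl40, Mrpl44, Mrpl55) and 5 of the small subunit (Mrps2, Mrps18b, Mrps22, Mrps35, Mrps36). Of all genes kept, 26.6% were at 0 in that library and 2.97% to 9.43% in the others. Over all other libraries only Mrps36 among the members was at 0, in KO replicate 2 and KO+DNMT3A replicate 1. The limit that a count of 0 allows was taken as 3 fragments on the longest transcript. It was 4.03 FPKM for Mrpl11 and 4.11 FPKM for Mrpl16, under their lowest values elsewhere (6.69 and 5.58 FPKM). Mrpl11 and Mrpl16 have 5 and 2 annotated transcripts. A shorter one would give a higher limit, so their 0 need not mean a lower level. For the other 11 members the limit reached the lowest other library, as for Mrpl34 (20.2 FPKM against 15.9) and Mrps22 (3.72 FPKM against 0.229). A level in WT replicate 1 below every other library was thus not detectable for them at this depth. A level below some of the libraries could be: the limit of Mrpl34, which has 1 annotated transcript, lay under its 38.2 FPKM in WT replicate 2. Placed on the longest transcript, 20 of 49 large-subunit and 14 of 29 small-subunit genes had at most 3 fragments in that library. Mrps28, whose only annotated transcript lets fragments be read off directly, had 3 and 25 fragments in WT, 43 and 4 in KO, and 40 and 25 in KO+DNMT3A. Limits and counting errors cover counting alone.

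The ratio of the 2 subunits varied less over libraries than either sum. Large over small summed FPKM was 1.90 and 2.12 in WT, 2.28 and 2.17 in KO, and 2.40 and 2.36 in KO+DNMT3A, so the groups followed each other without overlap. Means were 2.01 ± 0.153, 2.22 ± 0.0764 and 2.38 ± 0.0279 (SD, n = 2). Every pairwise exact two-sided permutation test gave p = 0.333, the smallest that 2 against 2 allows, and 0.333 after Benjamini-Hochberg adjustment over the 3 comparisons. The counting SE of a ratio was at least 0.260 in WT replicate 1 and 0.10 to 0.176 elsewhere. The difference of means was 0.215 between KO and WT, 0.153 between KO+DNMT3A and KO, and 0.368 between KO+DNMT3A and WT. Among the libraries compared, the SE of WT replicate 1 exceeded the first and that of KO replicate 2 the second, and none the last. Each is the error of a single library. The SE of a difference of means was not computed, so the part of counting error was not tested.

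The ratio was looked at in 6 other ways, chosen after the values were seen. KO+DNMT3A stood above WT in all 7, KO above WT in 6 and KO+DNMT3A above KO in 6. Without the 5 highest members of each subunit, WT was at 2.87 and 2.56 and KO at 2.77 and 2.89, which overlap. Without the single highest member of each, KO was at 2.30 and 2.53 and KO+DNMT3A at 2.65 and 2.53, which overlap as well. Mrps30 and Mrps18a bear an S in their names but belong to the large subunit in structures of the mammalian ribosome; counted there, and with Mrps36 left out, the ratio was 2.04 and 2.30 in WT, 2.48 and 2.43 in KO, and 2.6 and 2.51 in KO+DNMT3A.

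**Figure D2:**
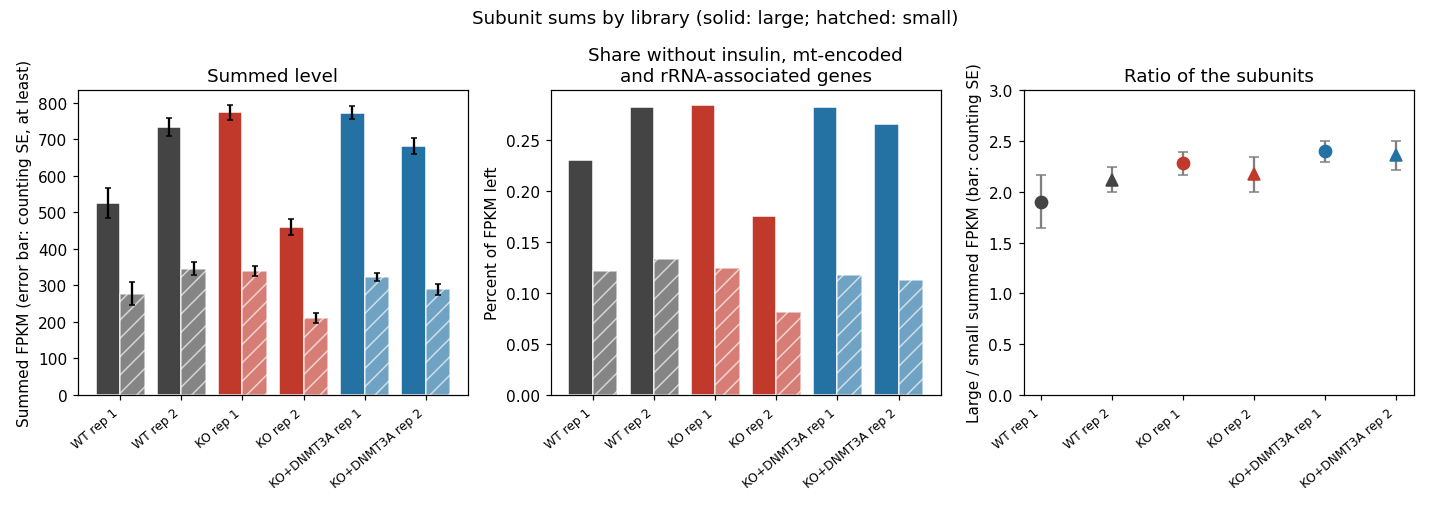
Left, summed FPKM of the large (solid) and small (hatched) subunit genes in each library with the counting SE, which is a lower limit; middle, the same sums as a percent of the FPKM left without insulin, mitochondrially encoded and rRNA-associated genes; right, the ratio of the sums with its counting SE. KO replicate 2 has the lowest bars in both bar panels (459 and 212 FPKM), and the ratio lies between 1.90 and 2.40 with the widest error bar, an SE of 0.260, in WT replicate 1.

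In KO against WT the subunits stayed near no change, and no member passed the test. Of 49 large-subunit genes 22 were higher in KO and 27 lower, the median log2 fold change being -0.02, and of 28 small-subunit genes kept 11 were higher and 17 lower, with a median of -0.16; over all 13233 genes kept 52.4% were higher and the median was 0.03. Fold changes refer to FPKM plus 1 and so understate those of low genes. Called by limma at an adjusted p under 0.05 were 0 members and 0 of all genes (0.0%), with 2 members and 240 of all genes at an unadjusted p under 0.05. Values of the groups did not overlap and were higher in KO for 0 large-subunit and 2 small-subunit genes (9.36% of all genes kept), and lower for 5 and 4 (10.5% of all genes kept). For the large and the small subunit the medians were -0.22 and -0.29 without WT replicate 1 and 0.11 and 0.05 without WT replicate 2. They were -0.34 and -0.33 without KO replicate 1, and 0.28 and 0.13 without KO replicate 2. Their direction thus depended on the libraries used. Cell type markers differed here as well: all 6 duct markers were lower, with a median of -1.99 and 3 without overlap. Of 8 macrophage markers 7 were lower (median -0.31, 3 without overlap), while the 9 beta cell markers went both ways. Ppy, the PP cell marker, was higher without overlap (2.16). All 4 alpha cell and all 4 Schwann markers were higher, 1 of each without overlap, and 2 of 3 delta cell markers, both without overlap. Of 7 stromal markers 6 were lower, 2 without overlap, and endothelial markers went both ways. Cela1, the only acinar marker kept, was at 0 and 0 FPKM in WT, 5.72 and 10.5 in KO, and 4.72 and 4.06 in KO+DNMT3A. None was called, and their part in the members' values was not tested.

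The member with the smallest unadjusted p was Mrpl14 (ENSMUSG00000023939, chr17:45686322-45698495 in GRCm38), whose protein lies at the face where the subunits meet. It was at 25.6 and 25.8 FPKM in WT, 10.6 and 8.03 in KO, and 17.3 and 20.2 in KO+DNMT3A. The 3 groups were fully apart, with KO lowest and KO+DNMT3A between the others. The log2 fold change in KO was -1.39 (SE 0.53; limma, adjusted p = 1), and it lay between -1.56 and -1.21 with any library left out. On its longest transcript of 645 bases the values come to 4.04 and 16.2 fragments in WT and 9.71 and 4.04 in KO. Its exons overlap those of Tmem63b on the other strand by 106 of 949 bases, and Tmem63b was at 12.7 and 12.3 FPKM in WT, 5.87 and 13.4 in KO, and 9.22 and 9.10 in KO+DNMT3A.

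Mrps22 (ENSMUSG00000032459, chr9:98588730-98601660), a small-subunit gene mutated in an inherited respiratory chain disease, had the next smallest p. It was at 0 and 0.229 FPKM in WT, 2.65 and 1.43 in KO, and 3.94 and 1.19 in KO+DNMT3A. Both WT libraries were lowest, while KO and KO+DNMT3A overlapped. The log2 fold change in KO was 1.43 (SE 0.60; limma, adjusted p = 1), between 1.13 and 1.72 with any library left out. The values come to 0 and 0.734 fragments on its longest transcript in WT and 12.5 and 3.67 in KO, so the group difference rests on few fragments. Its promoter carries the ETS letters printed above.

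Other large folds upward in KO also came from members at 0 in WT replicate 1. Mrpl44, needed for a stable large subunit, was at 0 and 3.56 FPKM in WT and 8.20 and 2.77 in KO (log2 fold change 1.46, SE 0.82), and Mrpl39, Mrpl34 and Mrpl11 showed 1.43, 2.15 and 1.41. For the first 3 the KO values lay on both sides of WT replicate 2, for Mrpl11 below it, and without WT replicate 1 the fold changes of Mrpl44, Mrpl39, Mrpl34 and Mrpl11 became 0.37, 0.042, -0.50 and -0.32. In the small subunit Mrps2 (0 and 2.59 FPKM in WT, 4.76 and 2.49 in KO) overlapped likewise, with a fold change of 1.24 that became 0.32 without that library. Mrps9 did not overlap, at 1.55 and 1.95 FPKM in WT and 2.58 and 4.39 in KO (0.68, SE 0.53), and Mrps18a was at 2.28 and 6.68 FPKM in WT and 6.65 and 7.39 in KO (0.67, SE 0.58).

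Lower in KO, beside Mrpl14, were Mrpl43, a mitochondria-specific protein gene, and Mrpl23, for a protein at the exit of the peptide tunnel. Mrpl43 was at 30.3 and 28.8 FPKM in WT, 22.5 and 13.7 in KO, and 24.9 and 15.5 in KO+DNMT3A. Both βRapKO groups lay below WT without overlap (log2 fold changes -0.71, SE 0.58, and -0.56, SE 0.58; neither called), and 33.4% of its exonic bases overlap Twnk. Mrpl23 was at 18.04 and 9.07 FPKM in WT, 8.98 and 6.22 in KO, and 6.90 and 8.69 in KO+DNMT3A, so WT replicate 2 was hardly above KO replicate 1. An annotated pseudogene matches Mrpl23 at 100% over 540 bases. Mrpl19 showed -0.60, and 36% of its exonic bases overlap Gcfc2 on the other strand. The small-subunit genes Mrps21, Mrps26, Mrps10 and Mrps24 showed -0.75 to -0.65, with KO replicate 2 the lowest library for each of these 4.

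**Figure D3:**
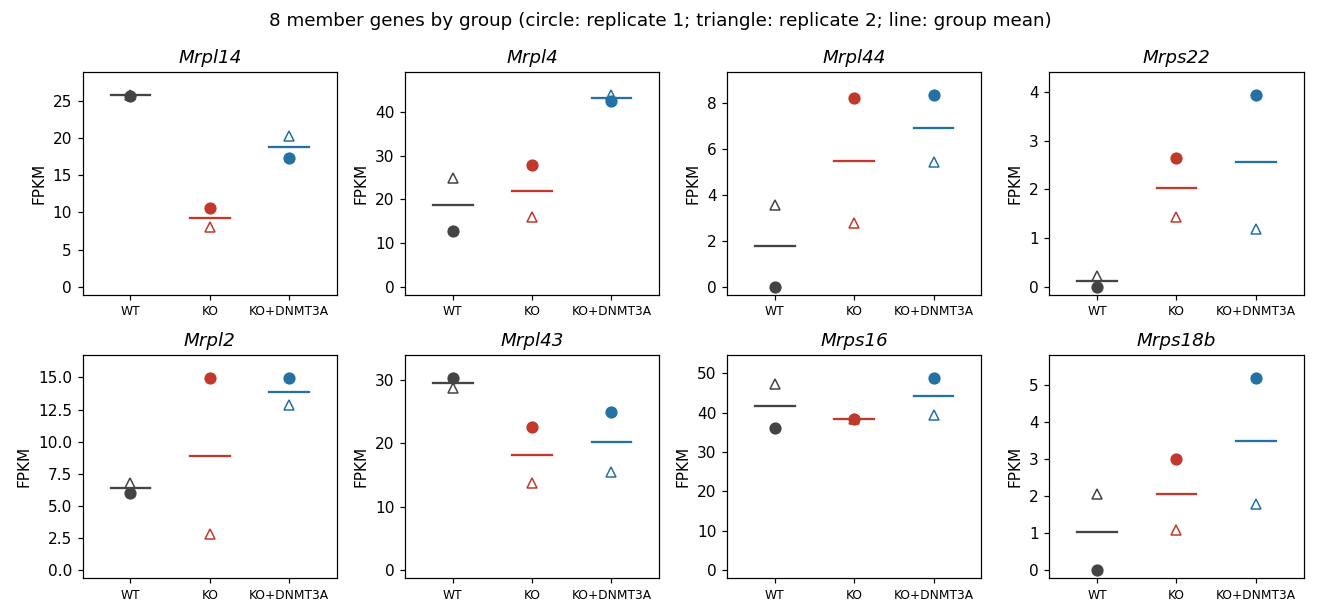
FPKM of 8 members by group, with circles for replicate 1, triangles for replicate 2 and lines for group means (n = 2). Mrpl14 separates the 3 groups, Mrpl4 stands at 42.6 and 43.9 FPKM in KO+DNMT3A above the other 4 libraries, Mrps22 is at or near 0 in WT, and Mrps16 lies at 36.1 to 48.8 FPKM throughout.

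In KO+DNMT3A against KO more members were higher than lower, to the extent that genes at large were. Higher were 37 of 49 large-subunit genes (median log2 fold change 0.17) and 20 of 28 small-subunit genes (median 0.18), beside 68.2% of all genes kept (median 0.19). Relative to that shift of all genes the subunit medians were -0.02 and -0.01, and under median scaling, which removes it, they were -0.03 and -0.02, as under quantile normalization (-0.03 for both). Without KO replicate 2 the medians were -0.13 and -0.15, and without KO replicate 1 they were 0.49 and 0.64. Called by limma were 0 members and 0 of all genes (0.0%), with 0 members and 147 genes at an unadjusted p under 0.05. Not overlapping and higher were 7 large-subunit genes and 1 small-subunit gene (17.2% of all genes kept), and lower were 2 and 2 (5.43% of all genes kept). Cell type markers moved with this comparison: all 8 macrophage markers were lower, with a median of -1.17 and 6 of them without overlap. All 9 beta cell markers were higher, with a median of 1.03 and 1 without overlap. They summed to 217965 and 1677 FPKM in KO and to 124490 and 152160 in KO+DNMT3A, so insulin-poor KO replicate 2 carried this. The 6 duct markers were all higher too (median 1.69, 0 without overlap), as were the 3 delta cell markers (median 0.60, 1 without overlap). Duct markers summed to 182 and 86.8 FPKM in KO and to 959 and 140 in KO+DNMT3A, where replicate 1 was the high library. Alpha cell, stromal, endothelial and Schwann markers went both ways. None was called, and their part in the members' values was not tested.

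Mrpl14 had the smallest p here too, with a log2 fold change of 0.95 (SE 0.53; limma, adjusted p = 1), but this comparison shares the KO libraries with the one before. Mrpl4 (ENSMUSG00000003299, chr9:21002738-21008839), for a relative of bacterial L4, was at 12.7 and 24.8 FPKM in WT, 27.8 and 16.0 in KO, and 42.6 and 43.9 in KO+DNMT3A. Its KO+DNMT3A libraries lay close together and above all others, while WT and KO overlapped. The log2 fold change over KO was 0.9996 (SE 0.61; limma, adjusted p = 1) and over WT 1.23 (SE 0.61; limma, adjusted p = 0.997), and over KO it was 0.62 without KO replicate 2. Its longest transcript would have drawn 189 and 114 fragments in KO+DNMT3A, so it is better counted than most members.

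Mrpl57 and Mrpl2, for large-subunit proteins, showed 1.45 (SE 0.90) and 0.93 (SE 0.72), and both were lowest in KO replicate 2. Mrpl57 was at 3.52 and 16.4 FPKM in WT, 11.5 and 1.66 in KO, and 16.2 and 13.5 in KO+DNMT3A, and its fold change was 0.34 without KO replicate 2. Mrpl2 was at 6.00 and 6.79 FPKM in WT, 14.9 and 2.82 in KO, and 14.9 and 12.8 in KO+DNMT3A, so KO replicate 1 matched the KO+DNMT3A libraries. Among small-subunit genes Mrps27, Mrps28, Mrps25 and Mrps21 showed 0.75, 0.73, 0.64 and 0.49, none with the groups apart. Of the exonic bases of Mrps25, 69.8% overlap Nr2c2 on the other strand. Mrps16, whose levels hardly moved (0.19), was the only small-subunit gene with KO+DNMT3A fully above KO.

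The members named as lower than KO, by the smallest p, had small differences. In the large subunit Mrpl53, Mrpl41, Mrpl58 and Mrpl12 showed -0.34 to -0.21. Of the exonic bases of Mrpl53, 88.0% overlap other genes, among them Gm42688 on the same strand. Only Mrpl58, for a peptidyl-tRNA hydrolase that frees stalled chains, had groups without overlap among the 4. It was at 3.97 and 2.997 FPKM in KO and 2.63 and 2.86 in KO+DNMT3A. In the small subunit Mrps6, Mrps11, Mrps30 and Mrps9 showed -0.55, -0.44, -0.42 and -0.25. Mrps11, at the mRNA platform, was at 2.16 and 13.8 FPKM in WT, 7.23 and 6.44 in KO, and 5.09 and 4.50 in KO+DNMT3A, so the WT replicates enclosed every other library. Mrpl46, which runs through its start, was at 23.9 and 10.7 FPKM in WT, 14.6 and 12.5 in KO, and 20.6 and 6.39 in KO+DNMT3A, an order unlike that of Mrps11, and 173 bases of their exons overlap.

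**Figure D4:**
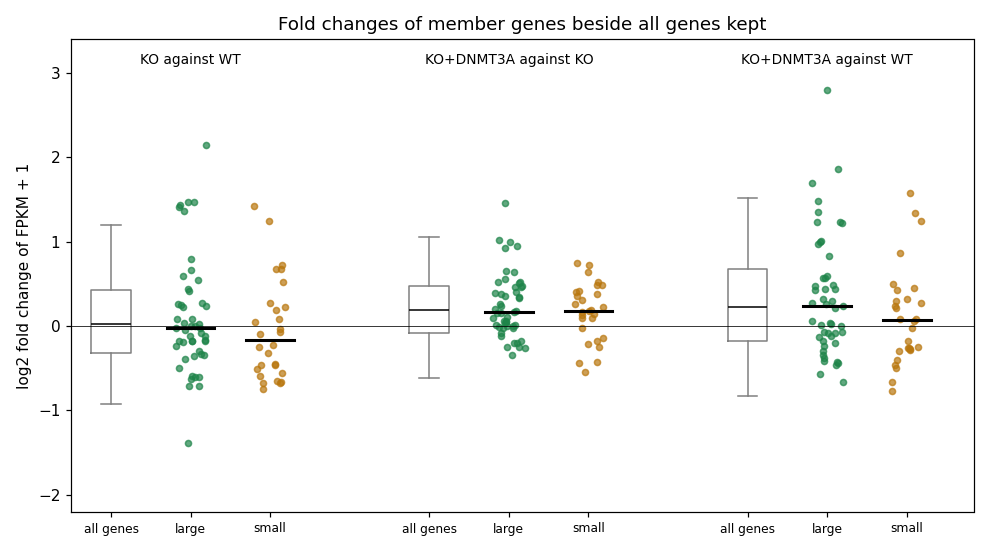
Log2 fold changes of FPKM plus 1 in the 3 comparisons, as points for the large-subunit (green) and small-subunit (orange) genes kept with black lines at their medians, beside a box of all 13233 genes kept (median, quartiles, whiskers at the 5th and 95th percentiles). The medians lie at -0.02, 0.17 and 0.24 for the large and -0.16, 0.18 and 0.07 for the small subunit, inside the box of all genes in each comparison.

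In KO+DNMT3A against WT, which shares its libraries with both earlier comparisons, the median of the large subunit lay beside that of all genes and the median of the small subunit below it, a difference that was not tested. Higher were 30 of 49 large-subunit genes (median log2 fold change 0.24) and 15 of 28 small-subunit genes (median 0.07), beside 64.8% of all genes kept (median 0.23). Without WT replicate 1 the medians were -0.13 and -0.12, and that of all genes 0.02. With median scaling they were 0.038 and -0.13, and the small-subunit median was also below 0 with quantile normalization (-0.05), rescaled FPKM (-0.04) and a filter of 5 FPKM (-0.06). Called by limma were 0 members and 0 of all genes (0.0%), with 1 member and 379 genes at an unadjusted p under 0.05. Not overlapping and higher were 6 large-subunit and 3 small-subunit genes (19.2% of all genes kept), and lower were 7 and 1 (7.87% of all genes kept). The 8 macrophage markers were all lower here as well, 7 of them without overlap, and the 9 beta cell markers all higher with overlap. All 7 stromal markers were lower, 1 without overlap, and all 3 delta cell markers higher, 2 without overlap. Ppy and Cela1 were higher without overlap too, while alpha cell, duct, endothelial and Schwann markers went both ways. The part of these markers in the members' values was not tested either.

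Mrps22 had the smallest p (log2 fold change 1.57, SE 0.60; limma, adjusted p = 0.997), with both WT libraries again under both KO+DNMT3A libraries, and it was 0.99 without KO+DNMT3A replicate 1. Mrpl44 stood at 8.34 and 5.43 FPKM in KO+DNMT3A against 0 and 3.56 in WT (1.86, SE 0.82) and Mrpl34 at 40.4 and 44.4 against 0 and 38.2 FPKM (2.79, SE 1.49). For both, the level of 3 fragments in WT replicate 1 (8.61 and 20.2 FPKM) limits what the 0 there can mean, and without that library Mrpl44 showed 0.77 and Mrpl34 0.14. Mrpl39, Mrps2, Mrps18b and Mrps35, all at 0 in WT replicate 1, showed 1.48, 1.34, 1.25 and 0.87, which became 0.098, 0.41, 0.45 and 0.18 without it.

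Lower than WT were Mrpl23 (-0.66), Mrpl43 (-0.56), Mrpl9 (-0.46) and Mrpl14 (-0.44), each without overlap, and in the small subunit Mrps6, Mrps23, Mrps30 and Mrps5 (-0.77 to -0.46), each with overlap. Mrps6 was at 23.3 and 8.78 FPKM in WT and 12.4 and 5.10 in KO+DNMT3A, and Mrps23 at 18.2 and 15.1 FPKM in WT and 5.35 and 18.4 in KO+DNMT3A. The WT libraries for Mrps6 and the KO+DNMT3A libraries for Mrps23 thus differed by more than the group means.

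**Figure D5:**
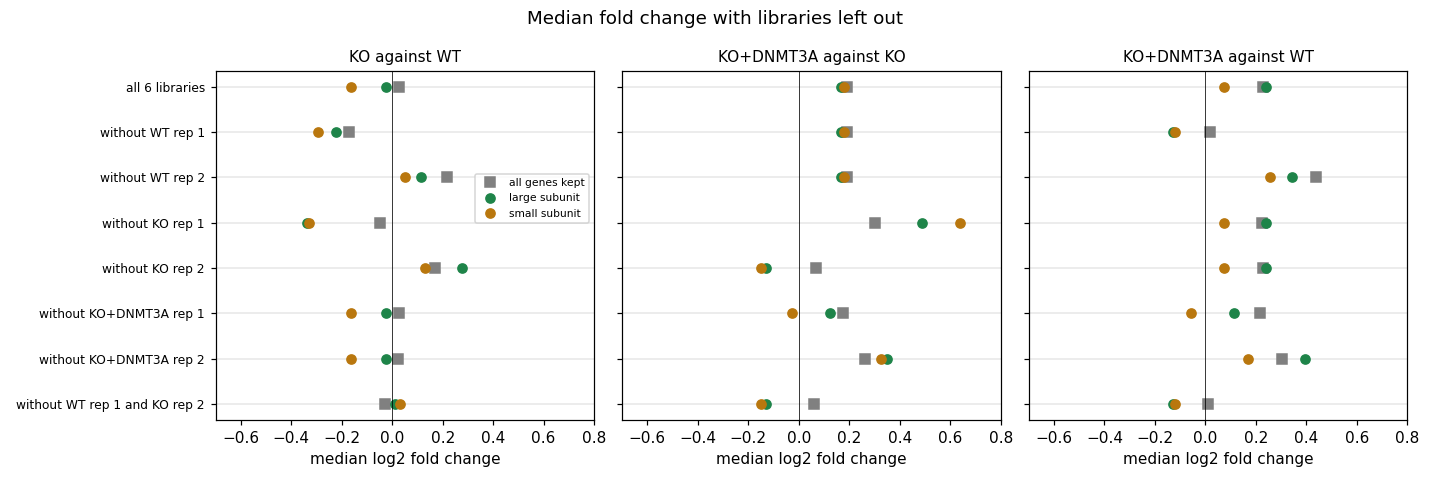
Median log2 fold change of the large-subunit genes (green), the small-subunit genes (orange) and all genes kept (grey squares) in each comparison, with all 6 libraries and with libraries left out. In KO against WT and in KO+DNMT3A against KO the subunit medians fall on opposite sides of 0 without KO replicate 1 (-0.34 and 0.49 for the large subunit) and without KO replicate 2 (0.28 and -0.13).

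Grouped by place in the ribosome, the members are described by their values alone, since no group was tested as a whole and limma called no single member. The stalk of the large subunit, which recruits translation factors, is built by Mrpl10, Mrpl11 and Mrpl12, the last also known to bind the mitochondrial RNA polymerase. They summed to 46.5 and 59.3 FPKM in WT, 54.5 and 49.8 in KO, and 60.0 and 43.5 in KO+DNMT3A, which overlap. Mrpl12 was the highest large-subunit gene in both insulin-poor libraries, with 33.0 FPKM in WT replicate 1 and 32.4 in KO replicate 2 beside 21.1 to 26.5 in the other 4. The 5 genes at the tunnel exit (Mrpl22, Mrpl23, Mrpl24, Mrpl45, Mrpl47) summed to 52.3 to 73.3 FPKM; Mrpl45, which ties the ribosome to the inner membrane, was at 19.3 and 11.2 FPKM in WT, 8.68 and 14.9 in KO, and 13.5 and 16.9 in KO+DNMT3A. The 6 genes of the central protuberance had medians of 0.32, 0.25 and 0.52 in the 3 comparisons, with 4, 4 and 5 of 6 higher, in the order in which they were described.

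The 20 mitochondria-specific large-subunit genes had medians of 0.05, 0.17 and 0.35 in that order, and the 29 with bacterial relatives -0.12, 0.11 and 0.02. In the small subunit the 10 mitochondria-specific genes kept had -0.16, 0.26 and 0.26, and the 18 with bacterial relatives -0.16, 0.18 and -0.06. The difference between these classes was not tested. The 3 relatives of bacterial S18, which sit at different places of the ribosome, had unequal levels: Mrps18c lay at 5.34 to 15.1 FPKM, Mrps18a at 2.28 to 7.39 and Mrps18b at 0 to 5.18. Mrps18c was the highest of the 3 in every library but KO replicate 2, where Mrps18a was at 7.39 FPKM and Mrps18c at 5.34.

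Further members were chosen for their known roles. Mrps12, at the decoding centre, was at 13.4 and 19.4 FPKM in WT, 28.7 and 9.98 in KO, and 23.3 and 12.1 in KO+DNMT3A, with the KO replicates at both ends. Mrps7, for an early-assembling protein, was at 8.63 and 24.7 FPKM in WT and 14.8 to 19.6 in the other 4 libraries. Mrps34 was at 6.70 and 16.6 FPKM in WT and 12.6 to 16.5 elsewhere, but 77.8% of its exonic bases overlap other genes, among them Nme3 on the same strand. Mrps30 was at 10.3 and 12.3 FPKM in WT, 12.8 and 8.86 in KO, and 11.5 and 5.06 in KO+DNMT3A. In none of these 4 were the groups apart.

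The other genes of mitochondrial translation, listed by function, gave 0 calls by limma in each comparison as well. The 5 mitoribosome subunits with other names were all kept; Chchd1, the most abundant, was at 62.6 and 71.7 FPKM in WT, 87.2 and 85.1 in KO, and 85.2 and 76.2 in KO+DNMT3A, and Gadd45gip1 at 36.0 and 41.2, 26.4 and 22.6, and 31.9 and 30.1 FPKM. Both βRapKO groups thus lay above WT for Chchd1 and below it for Gadd45gip1, without overlap. Of 15 translation factors 11, 10 and 12 were higher in the 3 comparisons, in the same order as before (medians 0.41, 0.20 and 0.37). Mtrf1, a relative of bacterial release factors, had the smallest p among them in KO+DNMT3A over WT (limma, adjusted p = 0.997) and was listed at 0 in WT replicates 1 and 2 and in KO replicate 2, at 2.26 FPKM in KO replicate 1, and 5.59 and 1.92 in KO+DNMT3A. Of 23 assembly and rRNA modification factors kept, 12, 21 and 19 were higher (medians 0.11, 0.29 and 0.57), and 6 lay above KO without overlap in KO+DNMT3A (26.1%, beside 17.2% of all genes). Tfb1m, which methylates the small-subunit rRNA, was at 0 and 3.87 FPKM in WT, 1.59 and 0 in KO, and 5.89 and 4.05 in KO+DNMT3A. Of 13 mitochondrial aminoacyl-tRNA synthetases kept 6, 8 and 6 were higher, and of 13 genes of mitochondrial transcription and its regulators 9, 9 and 10. Beside all these counts, 52.4%, 68.2% and 64.8% of all genes kept were higher. Among the listed genes with higher means than WT, Mtrf1l, Lrpprc, Taco1, Eral1, Mrm2, Ppargc1a and Pprc1 were at 0 in WT replicate 1, the shallow library. Their limits at that depth were not computed, so such counts against WT need not mean higher levels.

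The protein genes of mitochondrial DNA, the messages this ribosome translates, differed from its proteins in their order over libraries. Per FPKM of mitochondrial ribosomal protein genes there were 321 and 136 FPKM of mitochondrial messages in WT, 79.0 and 485 in KO, and 123 and 147 in KO+DNMT3A. KO replicate 2 and WT replicate 1, the insulin-poor libraries, were highest, and the KO replicates enclosed all others. The 73 cytosolic ribosomal protein genes kept had medians of -0.24, -0.02 and -0.32, with 22, 34 and 17 higher, and lay below WT without overlap for 18 genes in KO (24.7%) and 20 in KO+DNMT3A (27.4%), beside 10.2% and 14.3% of the large-subunit mitochondrial genes, 14.3% and 3.57% of the small-subunit ones, and 10.5% and 7.87% of all genes kept. None of the cytosolic genes was called by limma, and the difference between the 2 kinds of ribosome was not tested.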

How the data were processed

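The authors deposited FPKM per gene for 6 libraries, per the file headers. The submitters' processing notes name mm10, edgeR, StringTie 1.3.0 and HISAT2 2.0.4, without role or order. Symbols and positions came from GENCODE M21 (GRCm38) by gene identifier. Fragment numbers were inferred from single-transcript genes (84.4% to 91.7% of low values, at most 20 fragments, were multiples of 1 fragment to within 0.01), and errors and limits follow from them. All genes that reached 1 FPKM in 2 or more libraries (13233, with 77 of 78 members) entered 1 limma 3.58.1 fit (R 4.3.3) of log2(FPKM + 1) over all 6 libraries, with trended robust empirical Bayes, two-sided tests and Benjamini-Hochberg adjustment per comparison at 0.05. The main fit did not pair libraries by number. The descriptions carry other numbers than the titles: WT replicate 1, KO replicate 2 and KO+DNMT3A replicate 2 all bear a 3 there. The labels do not say what that number means. On simulated data (KO against WT, 13233 genes) the test recovered 0 of 50 genes at each of 2-, 4-, 8- and 16-fold with the spread of these libraries, and 48, 50, 49 and 49 at 0.1 of it, with 10 false calls. The simulated noise was independent between genes, so deviations that a library shares over many genes were not included. Named were, per comparison and subunit, the 4 higher and 4 lower members with the smallest p, the 4 highest and 3 lowest by level, and members of known role; others serve to illustrate a count. Members, lists and rules were chosen with earlier results of these data known. Alternatives were pseudocount 0.1, other filters (none, 5 FPKM), quantile, median and rescaled normalization, no trend, only the groups compared, a replicate block, subunits by structure, and libraries left out. A crossed block, and other forms of the subunit ratio, were added after the values were seen. Tables and figures were made in Python 3.11.15 with pandas 2.3.3, numpy 2.4.6, matplotlib 3.10.9 and scipy 1.17.1.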

Additional observations from a re-analysis of the deposited data

How the results depend on the processing

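No gene was called in any comparison under any alternative run, the replicate block included. With that block the counts were 0, 0 and 0. The medians of both subunits cannot change under it, since every group holds a replicate 1 and a replicate 2. A block with the WT numbers crossed, which puts the libraries numbered 3 in their descriptions together, also called 0. Deviations of same-numbered libraries from their group means correlated over genes at -0.27 (WT and KO), 0.10 (WT and KO+DNMT3A) and 0.32 (KO and KO+DNMT3A). With each library left out in turn, large-subunit medians ran from -0.34 to 0.28 for KO against WT, -0.13 to 0.49 for KO+DNMT3A against KO and -0.13 to 0.40 for KO+DNMT3A against WT, and small-subunit medians from -0.33 to 0.13, -0.15 to 0.64 and -0.12 to 0.26. Where a group is left with 1 library, it is assumed to vary like the others. Without WT replicate 1 and KO replicate 2 together the large-subunit median was -0.13 for KO+DNMT3A against KO and -0.13 against WT, and with median scaling 0.038 against WT. Over the FPKM left without insulin, mitochondrial and rRNA-associated genes, mean shares of WT, KO and KO+DNMT3A were 0.256%, 0.230% and 0.274% for the large and 0.127%, 0.103% and 0.115% for the small subunit. The other alternatives changed no direction of a gene named for its p; leaving libraries out reversed 24 values, whose cause beyond fewer samples was not tested. With 1 library left out, KO against WT ran for Mrpl34 from -0.50 (without WT replicate 1) to 4.79 and for Mrpl11 from -0.32 (likewise) to 3.135; without both libraries Mrpl11 was at -0.21 and Mrps18a, at 0.06 to 1.29 otherwise, at -0.0062. For KO+DNMT3A against KO the end on the other side of 0 came without KO replicate 2, and equally without both libraries, for Mrpl2 (-0.10 to 1.96), Mrpl12 (-0.50 to 0.090), Mrps28 (-0.47 to 1.92), Mrps21 (-0.17 to 1.15) and Mrps9 (-0.55 to 0.045). It came without KO+DNMT3A replicate 1 for Mrps27 (-0.043 to 1.55), and without KO+DNMT3A replicate 2 for Mrpl53 (-0.76 to 0.085), Mrps6 (-1.11 to 0.018), Mrps30 (-0.94 to 0.10) and Mrpl41 (0.034, within -0.73 to 0.22, the last without KO replicate 1). For KO+DNMT3A against WT it came without KO+DNMT3A replicate 1 for Mrps23 (-1.47 to 0.14), without KO+DNMT3A replicate 2 for Mrps30 (-1.01 to 0.027), and without WT replicate 1, or both, for Mrps5 (-1.10 to 0.18). The depth of WT replicate 1 limits every comparison with WT for members under about 12.3 FPKM, the level of 3 fragments on 1 kb there.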

Other observations

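Genes that start close to a member on the opposite strand differed in how far their levels ran beside it. Apba3, back to back with Mrpl54, was at 0 and 18.04 FPKM in WT, 15.7 and 7.91 in KO, and 11.6 and 16.1 in KO+DNMT3A, and both genes had their 2 lowest values in WT replicate 1 and KO replicate 2. Psma2, a proteasome subunit gene back to back with Mrpl32, was at 113 and 79.4 FPKM in WT, 125 and 52.9 in KO, and 121 and 55.9 in KO+DNMT3A, and both genes were highest in KO replicate 1 and KO+DNMT3A replicate 1 and lowest in KO replicate 2. Other pairs differed. Sars2 was at 0 and 4.84 FPKM in WT, 2.57 and 4.02 in KO, and 3.27 and 7.96 in KO+DNMT3A, whereas Mrps12 was highest in KO replicate 1 at 28.7 FPKM. Twnk was at 1.17 and 6.48 FPKM in WT, 3.82 and 6.98 in KO, and 3.73 and 8.47 in KO+DNMT3A, with replicate 2 higher in each group, while Mrpl43 was higher in replicate 1 of each. Ndufs6 was at 53.0 and 51.1 FPKM in WT, 37.9 and 30.5 in KO, and 38.8 and 48.4 in KO+DNMT3A, and Mrpl36 next to it ran from 9.09 FPKM in WT replicate 1 to 49.8 in KO+DNMT3A replicate 1. These pairs were chosen after their values were seen, and no relation was tested.

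Among the cytosolic ribosomal protein genes Rps29 had the smallest unadjusted p in KO against WT (limma, adjusted p = 1). Its listed value was 0 in WT replicates 1 and 2 and in KO+DNMT3A replicate 2, beside 4.94 and 4.52 FPKM in KO and 2.45 FPKM in KO+DNMT3A replicate 1. On a transcript of 1 kb, 3 fragments were worth 12.3 FPKM in WT replicate 1 and 3.08 in WT replicate 2, and more on a shorter one. A limit for Rps29 itself was not computed, and its 0 in WT need not mean a lower level.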
